A study of Arabidopsis thaliana and Lotus japonicus with 44 samples.

Results

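The 10 genes described here, all of Arabidopsis thaliana, encode proline-rich extensin-like proteins and were followed across all 8 Arabidopsis groups of the study. They are AT4G08410, AT4G08400, AT2G24980 (EXT6), AT5G06640 (EXT10), AT5G06630, AT5G35190 (EXT13), AT4G13390 (EXT12), AT3G54590 (HRGP1), AT3G54580 and AT3G28550. The 10 genes, of 36796 annotated, were chosen because AT4G08410 fell with fungal treatment in wild-type roots, and the question was whether the other 9 follow it. The family was thus selected on the counts of wild-type roots with and without the fungus, and the values of that comparison are given below as a description without a test. Of the 10 genes, 6 reached 10 counts in at least 1 library and were tested, among 16540 such genes in all.

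The study sequenced mRNA of roots of 6-week-old plants, with the roots of 5 seedlings from one plate pooled as a replicate. Wild-type Col-0 was compared with 2 transgenic lines in the Col-0 background, 308 and 310, which carry IPD3Min, the DNA-binding part of the Medicago truncatula symbiosis regulator IPD3, under the UBIQUITIN10 promoter together with an mCherry marker. IPD3 is a transcription factor of arbuscular mycorrhizal symbiosis, which Arabidopsis does not form. Each line stands for 1 insertion, so that a difference of 1 line cannot be told apart from an effect of its insertion site. On standard medium (half-strength MS), plants received germinated spores of the mycorrhizal fungus Rhizophagus irregularis (+AMF) or sterile water (-AMF) 48 hours before collection. There were 4 libraries each of Col-0 -AMF, Col-0 +AMF, 308 -AMF and 308 +AMF, and 3 each of 310 -AMF and 310 +AMF. On low nutrient (LN) medium all plants received the fungus, with 5 libraries of Col-0 +AMF LN and 3 of 308 +AMF LN.

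Extensins are structural glycoproteins of the plant cell wall. Their chains repeat a serine followed by a run of prolines, which are hydroxylated and decorated with arabinose, and tyrosines between the repeats are crosslinked by peroxidases so that the proteins form a network in the wall. In roots, many extensin genes are active in root hairs, the outgrowths of epidermal cells that take up water and nutrients, and mutants in extensins or in the enzymes that modify them have short hairs.

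Totals ranged from 13125046 to 14790061 counts per library, so that 10 counts correspond to less than 1 CPM (counts per 1000000 counts of a library). Root hair markers were present in every library: RSL4 ranged from 3.68 to 19.9 CPM and COBL9 from 30.2 to 107 CPM. The leaf gene LHCB1.2 ranged from 5.33 to 96.8 CPM, with its lowest level in 308 +AMF LN, and its part in the results was not tested. One library stood apart from its label: over all 16540 genes, the root mean square difference in log2 CPM of Col-0 +AMF LN replicate 5 was 0.548 to the mean of the other Col-0 LN libraries and 0.452 to that of line 308 on LN. The other 7 LN libraries lay closer to their own group. The label was kept, and the LN results are also given without this library. In bulk roots, fewer cells of a type and less RNA per cell cannot be told apart.

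All 10 genes carry the extensin repeat in the RefSeq TAIR10.1 sequence. The coding sequences held between 14 (AT5G35190) and 70 (AT3G28550) runs of a serine codon followed by 4 proline codons. Proline made up 32.2% to 38.3% of the codons and tyrosine 17% to 22%. For 4 genes the 90 bases of coding sequence with the most repeats are shown. Serine and proline runs are in capitals and the tyrosine-rich spacers in lower case. The stretches are shown because reads from identical sequence cannot be told apart. They lie on TAIR10.1 at chr4:5340721-5340810 for AT4G08410 and chr4:5324907-5324996 for AT4G08400, at chr5:2037552-2037641 for AT5G06630 and at chr3:20203486-20203575 for AT3G54580, all on the minus strand within an exon.
AT4G08410: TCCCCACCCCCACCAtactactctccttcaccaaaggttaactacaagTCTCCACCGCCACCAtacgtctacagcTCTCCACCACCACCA
AT4G08400: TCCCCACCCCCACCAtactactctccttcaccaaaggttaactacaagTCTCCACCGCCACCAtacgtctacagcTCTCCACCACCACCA
AT5G06630: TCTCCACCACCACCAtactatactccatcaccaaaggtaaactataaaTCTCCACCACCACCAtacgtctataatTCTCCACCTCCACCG
AT3G54580: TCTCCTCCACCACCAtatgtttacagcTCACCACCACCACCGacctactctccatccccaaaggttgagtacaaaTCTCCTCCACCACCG

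The first pair of stretches has the same letters. AT4G08410 (chr4:5338819-5341209) and AT4G08400 (chr4:5323606-5325374) are neighbouring copies. Of the 100-base windows of AT4G08410, 29.06% occurred again elsewhere in the genome, and of those of AT4G08400, 43.59%, in both cases in the other copy. In the longest stretch from which AT4G08400 could be counted, chr4:5324811-5325110, all 201 windows occurred again in AT4G08410, whereas 24.24% of the windows did in the counted stretch of AT4G08410. Reads of 100 bases therefore do not separate the copies there, and the values of AT4G08400 are uncertain and not independent of those of AT4G08410. For AT5G06630 the share was 0.14%, and for AT3G54590, AT3G54580 and AT3G28550 no window recurred outside the gene.

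The genes differed widely in how much of their length could be counted, because read pairs that overlapped more than 1 annotated transcript were not assigned. AT3G54580 (chr3:20200573-20203919) and AT5G06630 (chr5:2036312-2037855) have a single transcript, with 3347 and 1544 countable bases. Only these 2 can be compared per length, and over the 30 libraries the median level of AT3G54580 was 157 CPM per kilobase and that of AT5G06630 was 25 CPM per kilobase. AT3G28550 (chr3:10700562-10704018) had 1185 countable bases. AT3G54590 (chr3:20206128-20208783) was counted from 150 bases, chr3:20206661-20206810, which are exon in the transcript AT3G54590.3 and intron in the other two, so its values follow that stretch and not the whole gene. AT4G08410 had 1694 countable bases and AT4G08400 had 496. The same limit holds for AT4G08410, AT4G08400 and AT3G28550. Their longest countable stretches, of 1650, 300 and 876 bases, are exon in only 1 of their transcripts.

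The remaining 4 genes could not be followed. AT2G24980 had 11 countable bases and 0 counts in all 30 libraries. AT5G35190 had 82 bases and at most 1 count, AT4G13390 had 89 bases and at most 4 counts, and AT5G06640 had 118 bases and at most 7 counts. These counts say nothing about whether the genes were expressed, and none of the statements below covers them.

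**Figure D1:**
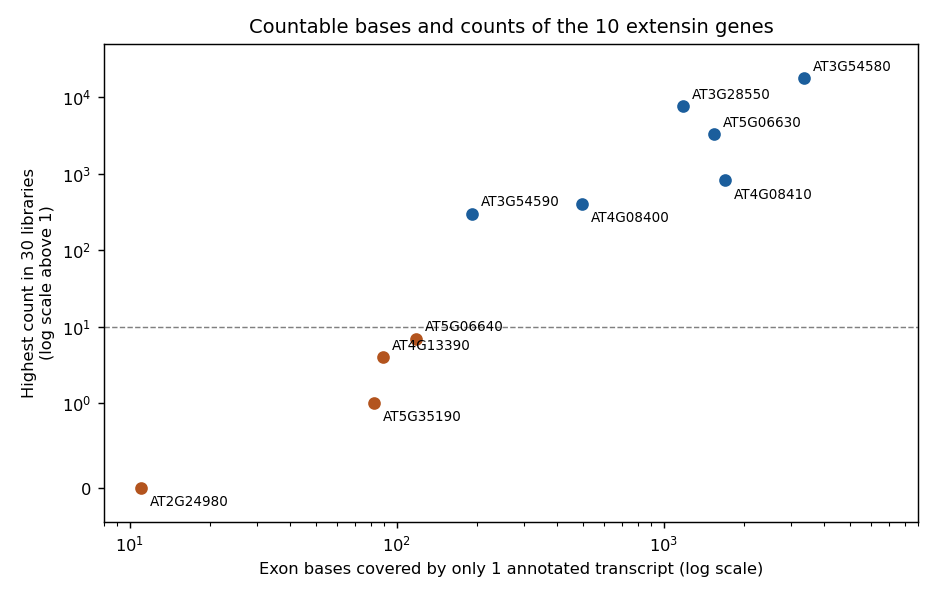
Highest count in the 30 libraries against the number of exon bases covered by only 1 annotated transcript, 1 point per gene, both axes on log scales. The 4 genes below the dashed line of 10 counts (orange) have 11 to 118 countable bases, and the 6 tested genes (blue) have 192 to 3347.

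A sequence shared by all 10 genes lies just before their annotated starts. The 6 letters GCACGT, read on both strands, occurred in the 250 bases before the start in 10 of 10 genes, at 81 to 138 bases from it. They occurred in 3.49% of the same windows of 27443 protein-coding genes. For the 11 root hair genes listed below the share was 36.4% (4 genes), and for 12 other extensins 8.3% (1 gene). The window of AT4G08400 repeats most of that of AT4G08410, and several others share bases beside GCACGT, so the 10 matches are not independent. The letters were picked after these 10 windows had been read, and a match is a description and not a binding site. GCACGT overlaps the core of the root hair element, a promoter motif known from root hair genes of Arabidopsis. The full consensus of that element matched none of the 10 windows, 0.75% of all windows and 4 of 11 windows of those root hair genes. The windows of 3 genes are shown because these genes moved together in the libraries, with GCACGT or its reverse complement in capitals. They lie on TAIR10.1 at chr4:5341210-5341459, chr5:2037856-2038105 and chr3:20203920-20204169, in that order, and are written along the minus strand.
AT4G08410: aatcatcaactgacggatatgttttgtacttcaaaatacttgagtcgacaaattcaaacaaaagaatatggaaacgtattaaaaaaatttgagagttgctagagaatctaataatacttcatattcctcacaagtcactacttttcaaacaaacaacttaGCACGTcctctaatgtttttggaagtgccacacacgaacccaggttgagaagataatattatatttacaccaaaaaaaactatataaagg
AT5G06630: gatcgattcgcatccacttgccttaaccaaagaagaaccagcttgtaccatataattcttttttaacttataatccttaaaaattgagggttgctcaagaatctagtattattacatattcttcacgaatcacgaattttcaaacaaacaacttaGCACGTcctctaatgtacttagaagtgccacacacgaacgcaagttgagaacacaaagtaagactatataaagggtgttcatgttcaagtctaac
AT3G54580: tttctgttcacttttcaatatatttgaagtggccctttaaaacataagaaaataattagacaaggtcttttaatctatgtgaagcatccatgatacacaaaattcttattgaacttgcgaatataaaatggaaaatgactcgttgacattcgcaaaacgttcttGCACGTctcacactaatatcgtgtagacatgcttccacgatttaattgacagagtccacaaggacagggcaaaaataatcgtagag

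In Col-0 on standard medium all 6 measurable genes were lower with the fungus. These are the values that chose the family, so they carry no test. AT4G08410 was at 28.5, 28.1, 29.9 and 12.9 CPM in the 4 Col-0 -AMF libraries and at 8.15, 2.44, 6.34 and 1.45 CPM in the 4 Col-0 +AMF libraries. Every treated library lay below every untreated one, and the fitted log2 fold change was -2.43. AT3G54580, the most abundant of the 6 in CPM, was at 715, 806, 947 and 461 CPM without and at 349, 192, 295 and 217 CPM with the fungus, a log2 fold change of -1.48. AT3G28550 was at 307, 403, 374 and 295 CPM without and at 150, 127, 201 and 189 CPM with the fungus, a log2 fold change of -1.05. Both sets of libraries were apart for each of these genes.

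AT3G54590 was also apart, at 5.52 to 10.3 CPM without and 1.12 to 3.99 CPM with the fungus, with a log2 fold change of -1.71. AT5G06630, at 34.6 to 89.6 CPM without and 5.33 to 35.4 CPM with the fungus, overlapped by a small margin and had a log2 fold change of -1.97. AT4G08400 overlapped as well and had a log2 fold change of -1.70. The treated libraries lay entirely below the untreated ones for 4 of the 6 genes, and for 5.19% of the 16540 genes. The median log2 fold change of the 6 genes was -1.70, against 0.00 over all genes. The cortex marker CO2 (1 of 1 measured) moved with them, at 19.9 to 37.7 CPM without and 5.87 to 21.6 CPM with the fungus. The summed level of the 3 stele markers was 1080.0 to 1399 CPM without and 1255 to 1525 CPM with it. PHO1, at 546 to 1255 CPM over the libraries, made up most of that sum. The other 2 stele markers reached at most 219.7 (SUC2) and 76.6 CPM (SHR). The part of these markers in the drop was not tested.

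**Figure D2:**
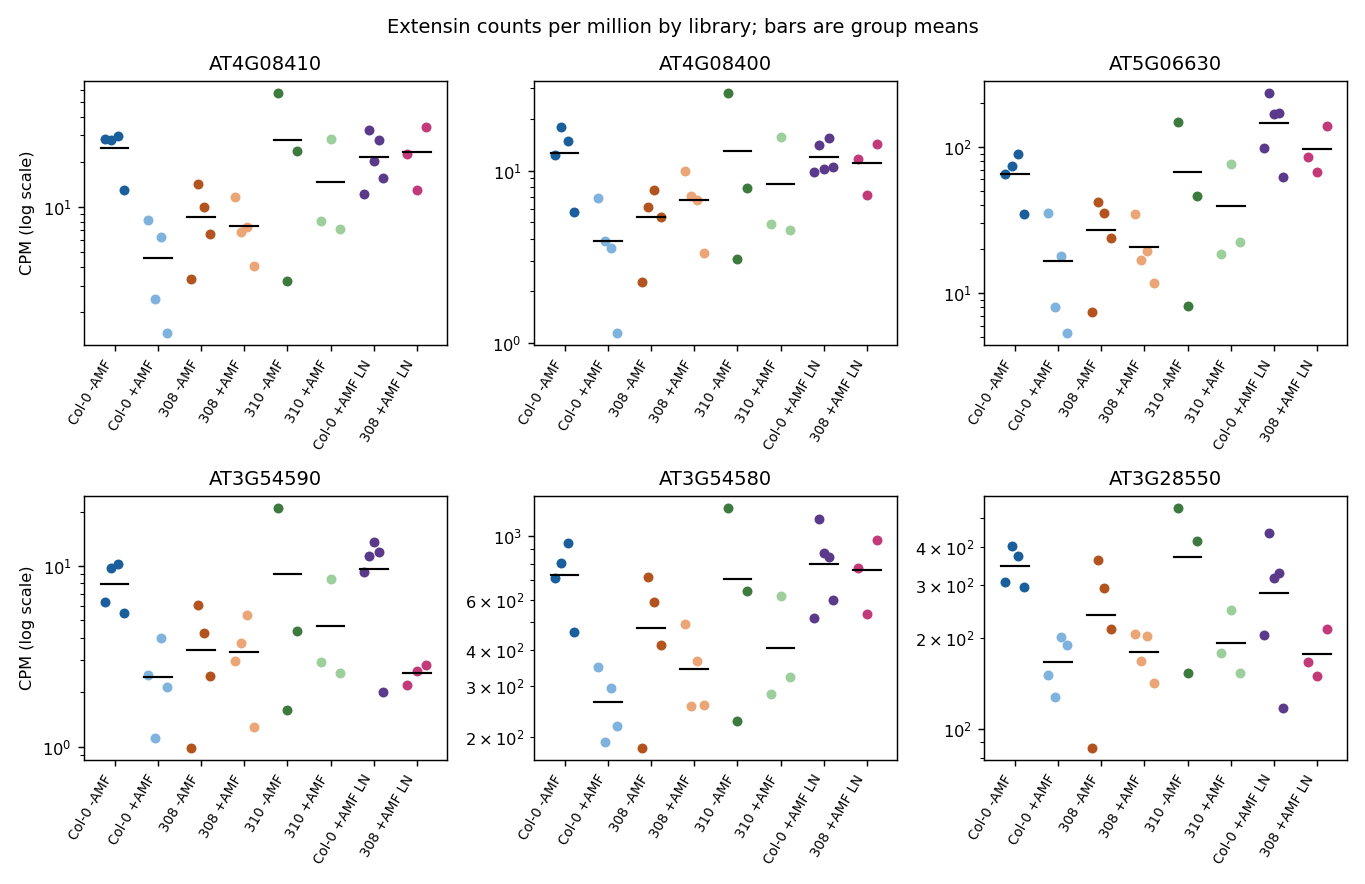
CPM on a log scale of the 6 measurable genes in each library (points) with the group mean (bar), for the 8 groups. In Col-0 -AMF AT4G08410 lies between 12.9 and 29.9 CPM and in Col-0 +AMF between 1.45 and 8.15 CPM; the 310 -AMF libraries span 3.20 to 57.3 CPM.

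In the lines that carry IPD3Min, none of the 6 genes passed the quasi-likelihood test with the fungus, and the result in line 310 depended on the test used. In line 308, AT4G08410 was at 3.31, 14.3, 10 and 6.58 CPM without and at 11.6, 6.79, 7.32 and 4.05 CPM with the fungus. The groups overlapped almost completely, and the log2 fold change was -0.20 ± 0.40 (SE; edgeR quasi-likelihood test, Benjamini-Hochberg adjusted p = 0.924). Over the 6 genes the log2 fold changes in line 308 ran from -0.48 (AT3G54580) to 0.33 (AT4G08400), and 0 of 6 were called at an adjusted p under 0.05, as were 0.0121% of all genes. Leaving out 308 +AMF replicate 4 or 308 -AMF replicate 2 turned the sign for AT4G08410, to 0.00 and 0.16.

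In line 310, AT4G08410 was at 57.3, 3.20 and 23.5 CPM without and at 8.06, 28.5 and 7.14 CPM with the fungus. The spread within each group was larger than the difference between them, and the log2 fold change was -0.95 ± 0.85 (SE; edgeR, adjusted p = 1.00). All 6 genes were fitted lower in treated 310 roots, from -0.96 to -0.64, and 0 of 6 were called, as were 0.00% of all genes (0 genes by edgeR, with 545 at an unadjusted p under 0.05). The likelihood-ratio test with a common dispersion, the dispersion estimate named in the study's methods, gives every gene the same spread. By that test 5 of the 6 genes were called lower in line 310, against 0.484% of all genes in either direction, and AT4G08410 had an adjusted p of 0.00388 (edgeR), whereas in line 308 it called 0 of 6, against 0.992%. Without 310 -AMF replicate 1 the log2 fold change of AT4G08410 was 0.12. The effect of the fungus did not differ detectably between the lines, with 0 of 6 genes called in the interaction and 0.00% of all genes (402 at an unadjusted p under 0.05). The difference between Col-0 and either line in the effect of the fungus was not tested, because the Col-0 arm chose the genes.

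Between genotypes on standard medium none of the tested genes passed the quasi-likelihood test. AT4G08410 is given without a test wherever these Col-0 libraries enter, since they chose it. The other 5 genes were tested, but they followed AT4G08410 across the libraries (Pearson's r 0.71 to 0.95), so their values against these Col-0 libraries are not independent of the choice. Without the fungus, all 6 genes were fitted lower in line 308 than in Col-0, with a median log2 fold change of -1.23. Of the 5 tested, 0 were called, against 1.92% of all genes, and the lowest adjusted p was 0.124 (AT4G08400). The 308 -AMF and Col-0 -AMF libraries overlapped for every gene. With the fungus all 6 were fitted higher in line 308, with a median of 0.42, and 0 of 5 were called, against 6.66% of all genes. These 2 comparisons and the Col-0 comparison above share libraries, and AT4G08410 had log2 fold changes of -1.54 and 0.68 in them.

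Line 310 and Col-0 differed by a median of 0.07 without the fungus, with 0 of 5 genes called against 0.0121% of all genes. With it the median was 1.01, with 0 of 5 called against 0.0302%. Line 308 was fitted lower than line 310 for all 6 genes. The median was -1.30 without the fungus (0 of 6 called, against 0.109% of all genes) and -0.39 with it (0 of 6, against 0.599%). The 310 -AMF libraries alone spanned 226 to 1253 CPM for AT3G54580 and 3.20 to 57.3 CPM for AT4G08410, so the spread within that group exceeded the differences between the lines.

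**Figure D3:**
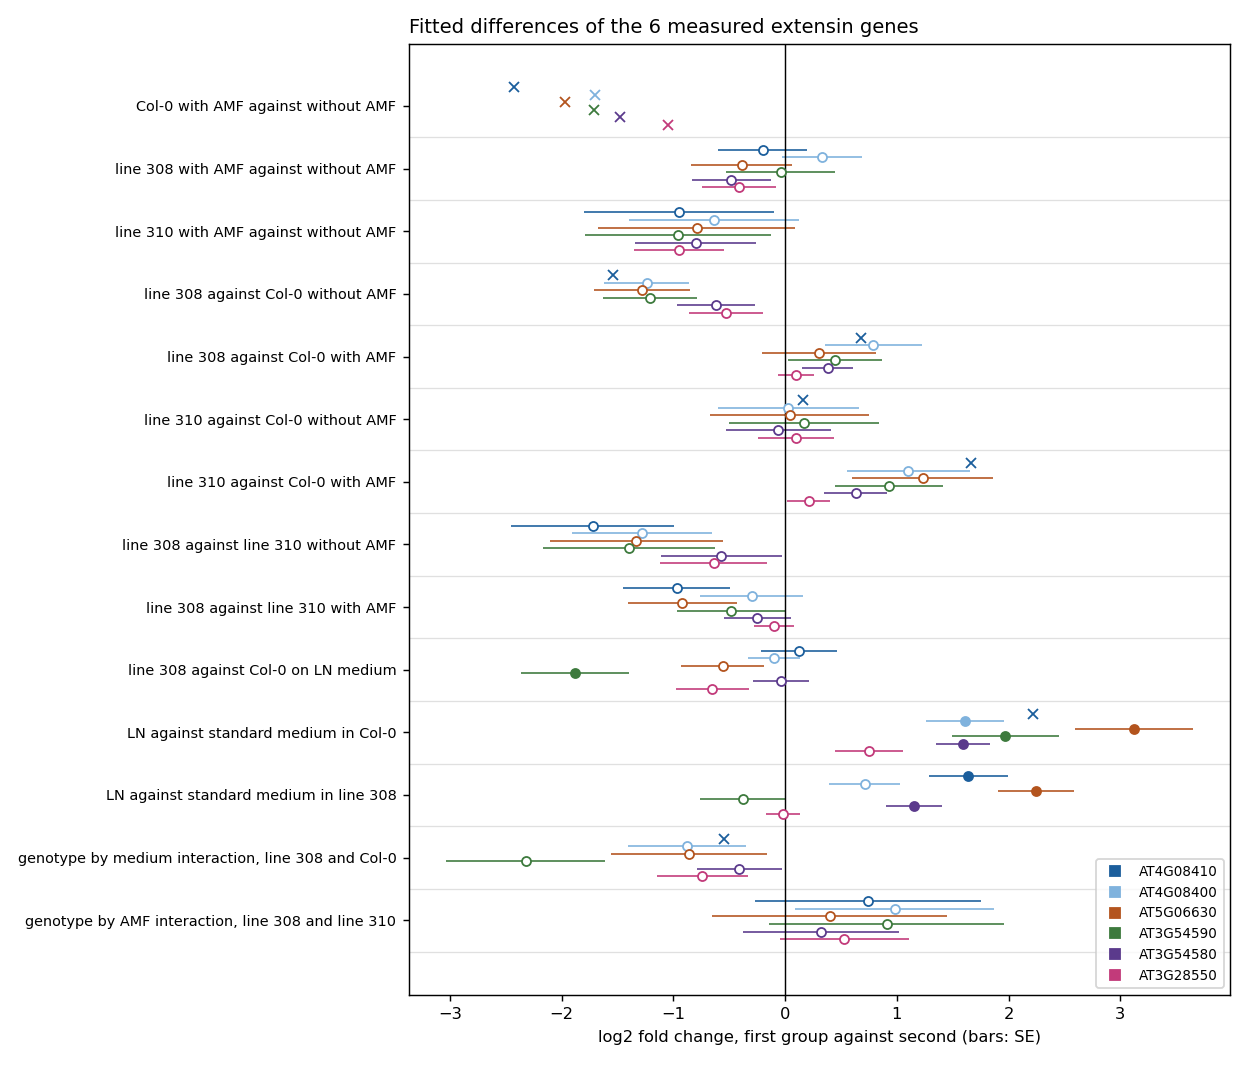
Fitted log2 fold changes of the 6 genes in the 14 comparisons, the first group named against the second; circles have SE bars and are filled where the adjusted p was under 0.05, and crosses are values given without a test. The filled circles lie in the LN comparisons: 4 in Col-0 (1.59 to 3.12), 3 in line 308 (1.15 to 2.24) and 1 in line 308 against Col-0 on LN (-1.88).

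On low nutrient medium 3 of the 6 genes were called higher in line 308, and 4 of the 5 tested in Col-0. All LN plants carried the fungus, so that LN and standard medium were compared in treated roots. In Col-0, AT5G06630 was at 98.6, 234, 167, 172 and 62.3 CPM on LN medium and at 35.4, 8.03, 18 and 5.33 CPM on standard medium. The groups did not overlap, and the log2 fold change was 3.12 ± 0.53 (SE; edgeR, adjusted p = 0.000708). AT3G54580 was at 517, 1144, 874, 844 and 599 CPM on LN medium and at 192 to 349 CPM on standard medium. It was also apart and rose by a log2 fold change of 1.59 ± 0.24 (SE; edgeR, adjusted p = 0.000312).

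AT4G08400 rose by 1.61 ± 0.35 (SE; edgeR, adjusted p = 0.00388). AT3G54590 was at 9.27, 11.4, 13.6, 12 and 2 CPM on LN medium and at 2.49, 1.12, 3.99 and 2.13 CPM on standard medium. It rose by 1.97 ± 0.48 (SE; edgeR, adjusted p = 0.00724) although its LN replicate 5 lay among the standard libraries. AT3G28550 had a log2 fold change of 0.75 ± 0.30 (SE; edgeR, adjusted p = 0.0765). Of the 5 tested genes 4 were called higher, against 19.3% of all genes. The Col-0 +AMF libraries, in which these genes were low, are among those that chose the family, so this count is not independent support. Without LN replicate 5 all 5 were called higher, against 21.5% of all genes, with AT3G28550 at 0.95 (edgeR, adjusted p = 0.00344). AT4G08410, for which the Col-0 +AMF libraries had been used in the choice, went from a mean of 4.6 to 21.6 CPM, a log2 fold change of 2.22 without a test. The LN libraries lay above all standard libraries for 4 of the 6 genes and for 15.9% of all genes.

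In Col-0 the 3 stele markers summed to 960 to 1056 CPM on LN medium against 1255 to 1525 CPM on standard medium. In line 308 the sum was 796 to 939 CPM against 880.0 to 1165 CPM, with overlapping ranges. PHO1 made up most of the sum in both genotypes. The cortex marker CO2 was at 9.15 to 26.1 CPM on LN medium and 5.87 to 21.6 CPM on standard medium in Col-0. In line 308 CO2 was lower on LN medium, at 2.2 to 8.81 CPM against 8.58 to 20.7 CPM, unlike the extensin genes called there. The part of these markers in the LN results was not tested.

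In line 308, whose libraries had no part in the choice, AT4G08410 was at 22.5, 13 and 34 CPM on LN medium and at 11.6, 6.79, 7.32 and 4.05 CPM on standard medium. The LN libraries lay above all standard libraries, and AT4G08410 rose by a log2 fold change of 1.64 ± 0.35 (SE; edgeR, adjusted p = 0.00639). AT5G06630 rose by 2.24 ± 0.34 (SE; edgeR, adjusted p = 0.00109), from a mean of 20.7 to 97.3 CPM. AT3G54580 rose by 1.15 ± 0.25 (SE; edgeR, adjusted p = 0.0066), from a mean of 343 to 759 CPM. These 3 genes were called higher, against 16.7% of all genes, and were also the genes whose groups were apart, against 20.1% of all genes.

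The other 3 genes did not pass the test in line 308. AT4G08400 had a log2 fold change of 0.71 (edgeR, adjusted p = 0.124). AT3G54590 was at 2.20, 2.62 and 2.84 CPM on LN medium and at 2.98, 3.75, 5.33 and 1.28 CPM on standard medium, a log2 fold change of -0.38 (edgeR, adjusted p = 0.484). AT3G28550 was at 167, 149 and 213 CPM on LN medium and at 206, 167, 203 and 142 CPM on standard medium, a log2 fold change of -0.02 (edgeR, adjusted p = 0.937), and its sign turned when any of 4 libraries was left out, up to 0.08.

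On LN medium itself 1 of the 6 genes differed between line 308 and Col-0, against 8.64% of all genes. That share was 25.3% without Col-0 replicate 5 and 1.45% without 308 replicate 3. AT3G54590 was lower in line 308, by a log2 fold change of -1.88 ± 0.48 (SE; edgeR, adjusted p = 0.0385). The 3 libraries of line 308 lay between 2.20 and 2.84 CPM and 4 of the 5 Col-0 libraries between 9.27 and 13.6 CPM, with Col-0 replicate 5 below all of line 308. The call was lost when any library of line 308 or any of Col-0 replicates 1 to 4 was left out, with adjusted p from 0.0715 to 0.12 and log2 fold changes from -1.96 to -1.73, and without Col-0 replicate 5 it was -2.14 (edgeR, adjusted p = 9.77e-05). AT3G28550 had a log2 fold change of -0.65 (edgeR, adjusted p = 0.227), and without Col-0 replicate 5 it was called at -0.84 (adjusted p = 0.0179). Col-0 replicate 5 was likewise the lowest of its group for AT5G06630 and AT3G28550 and for the root hair gene COBL9, at 44.5 CPM against 72.6 to 107 CPM.

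The difference between the genotypes in the effect of the medium was called for 0 of the 5 tested genes, against 5.50% of all genes. AT3G54590 came closest, with an interaction of -2.32 ± 0.71 on the log2 scale (SE; edgeR, adjusted p = 0.0608). Without Col-0 +AMF LN replicate 5 it was -2.58 (adjusted p = 0.00345), and 2 genes were then called, against 16.5% of all genes. The Col-0 +AMF libraries of standard medium, in which these genes were low, enter this test and are among those that chose the family. The interaction is therefore not independent of the choice.

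The 6 genes rose and fell together from library to library, also within groups. Across the 30 libraries, the highest level was 39.6-fold above the lowest for AT4G08410, 43.8-fold for AT5G06630 and 21.4-fold for AT3G54590, but 6.85-fold for AT3G54580 and 6.25-fold for AT3G28550. Pearson's r of log2 CPM between pairs of the genes ran from 0.62 (AT4G08400 and AT3G28550) to 0.95 (AT4G08410 and AT3G54580), over 15 pairs. With the group means taken out it ran from 0.60 to 0.97. The pair AT4G08410 and AT5G06630, which lie on different chromosomes, had 0.97. AT3G28550 and AT3G54590 were more alike (0.86) than either was to AT4G08410 (0.71 and 0.76). These values are descriptions over libraries that share their groups.

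In some groups the same libraries were high or low for all 6 genes. 310 -AMF replicate 1 was the highest in its group for all 6, with AT3G54580 at 1253 CPM and AT4G08410 at 57.3 CPM. 310 -AMF replicate 2 was the lowest, at 226 and 3.20 CPM. 308 -AMF replicate 1 was the lowest of its group for all 6, with AT3G54580 at 183 CPM. In other groups the order differed by gene. Col-0 +AMF replicate 4 was the lowest of its group for AT4G08410, at 1.45 CPM, and the second highest for AT3G28550, at 189 CPM.

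The 5 other genes that followed the mean of the 6 most closely, among 10916 genes compared over 30 libraries, also belong to the cell wall. EXT11 (AT5G49080), annotated as an extensin pseudogene in RefSeq, had a Pearson's r of 0.92 and a Spearman's rho of 0.91. LRX1, a leucine-rich repeat extensin of root hair walls, had 0.92 and 0.92. LRX2, its close relative, had 0.88 and 0.84. The arabinogalactan protein gene AGP3 had 0.86 and 0.85. PRP3, a proline-rich protein of root hair walls, had 0.84 and 0.83.

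The 11 genes of root hair cells, from regulators such as RHD6 and RSL4 to wall genes such as EXPA7 and EXPA18, varied in the same direction over a smaller range. Their mean log2 CPM spanned 1.69 over the 30 libraries, and that of the 6 extensin genes 3.61, with a Pearson's r of 0.81 and a Spearman's rho of 0.81 (r = 0.83 with group means taken out). In Col-0 with the fungus, where the extensin genes were at a median of -1.70, the root hair genes were at a median log2 fold change of -0.19, with 10 of 11 fitted lower. PRP1 went from a mean of 41.3 to 14.7 CPM, PRP3 from 165 to 66.8 CPM and RSL4 from 15.3 to 8.51 CPM, with overlapping libraries in each case. Their summed marker level (RSL4, COBL9, EXPA7 and EXPA18, 4 of 4 measured) was 115 to 243 CPM in Col-0 -AMF and 94.6 to 182 CPM in Col-0 +AMF. On LN medium 7 of 11 were called higher in Col-0 (median 0.91) and 8 of 11 in line 308 (median 0.93), with 0 lower in either. Of all genes, 19.3% and 16.7% were called higher in these comparisons. Without Col-0 replicate 5 the count in Col-0 was 8 of 11, against 21.5% of all genes. The Col-0 counts use the Col-0 +AMF libraries, which are among those that chose the family, and are not independent support. With all LN libraries kept, the summed marker level on LN medium was 222 to 338 CPM in Col-0 and 227 to 318 CPM in line 308. The part of root hair number in the extensin levels was not tested.

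**Figure D4:**
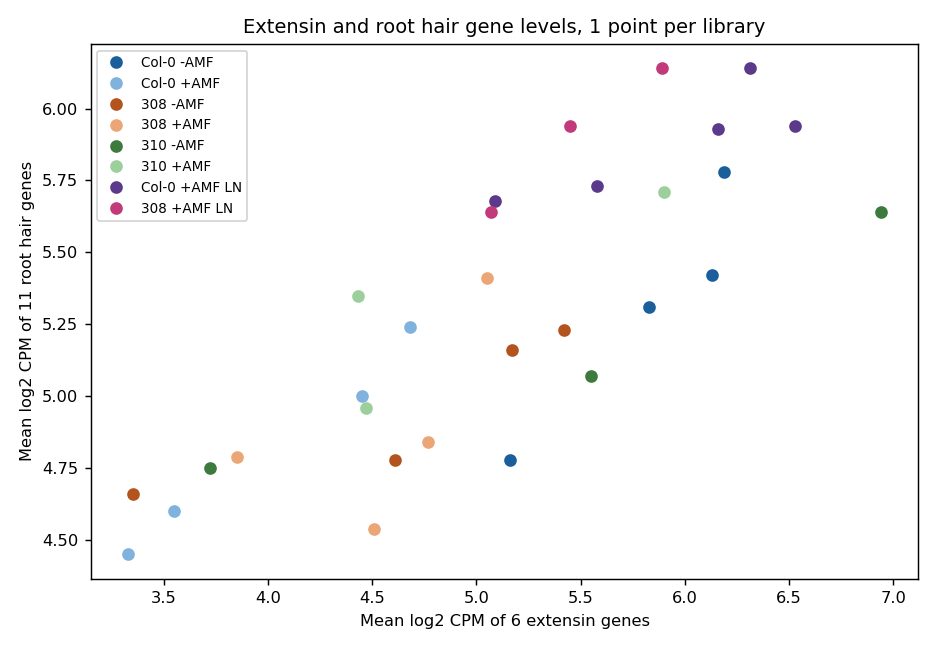
Mean log2 CPM of the 11 root hair genes (y axis) against that of the 6 extensin genes (x axis), 1 point per library, coloured by group. Both rise together; the extensin mean spans 3.61 log2 units and the root hair mean 1.69.

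Of the root hair genes with the most counts, CSLD3, which encodes a cellulose synthase-like enzyme of hair tips, had a log2 fold change of 0.22 on LN medium in Col-0 (edgeR, adjusted p = 0.0732) and -0.15 in line 308 (0.152). PRP3 rose by 1.48 in Col-0 (0.00558) and 1.71 in line 308 (0.00228). RBOHC, the NADPH oxidase needed for hair growth, rose by 0.52 in Col-0 (0.0294) and had -0.15 in line 308 (0.25).

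The 13 other extensins, classical ones and the LRX family, were listed for comparison, and 11 were measurable. In Col-0 with the fungus all 11 were fitted lower, with a median log2 fold change of -0.83, given without a test as it is the comparison that chose the family. In lines 308 and 310 the medians were 0.10 and -0.08, with 0 of 11 called in each, against 0.0121% and 0.00% of all genes. In line 308 against Col-0 with the fungus, 3 of 11 were called higher and 0 lower (median 0.35), against 6.66% of all genes. Without the fungus 0 of 11 were called (median -0.36), against 1.92%. Line 310 against Col-0 had 0 of 11 called without (0.0121% of all genes) and with the fungus (0.0302%). These Col-0 libraries chose the family, so the counts are not independent support. On LN medium 6 of 11 were called higher in Col-0, against 19.3% of all genes, with 0 lower and a median of 0.69. In line 308, 5 of 11 were called higher and 3 lower, with a median of 0.32. Of all 16540 genes, 16.7% were called higher there and 2478 genes lower. The 3 that fell were LRX3, LRX4 and LRX5, with log2 fold changes of -0.62, -0.95 and -0.53.

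Of the extensins with the most counts, EXT3, required for wall assembly in the embryo, rose by 0.69 in Col-0 (edgeR, adjusted p = 0.00073) and 0.53 in line 308 (0.00776) on LN medium. AT2G43150 had 0.16 (0.267) and 0.32 (0.15). AT1G26250 rose by 1.41 in Col-0 (0.00153) and had -0.35 in line 308 (0.228), and AT1G26240 rose by 3.33 (9.18e-06) and 1.26 (0.0271). In the test of the difference between the genotypes in the effect of LN medium, 4 of the 11 other extensins were called lower, against 2.90% of all genes. Without Col-0 +AMF LN replicate 5 the count was again 4, against 1358 of 16540 genes. Without that library 7 of 11 were called higher on LN medium in Col-0, against 21.5% of all genes. The Col-0 +AMF libraries, which are among those that chose the family, enter the interaction and the Col-0 LN comparison. These counts are therefore not independent support.

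The enzymes that hydroxylate, arabinosylate and crosslink extensins were measurable for 12 of 15 genes. In Col-0 with the fungus their median log2 fold change was -0.17. With LN medium 7 of 12 were called higher in Col-0 (median 0.50) and 4 of 12 in line 308 (median 0.29), and 0 were lower in either. The shares called higher over all genes were 19.3% and 16.7%. Without Col-0 replicate 5 the count in Col-0 was 8 of 12, against 21.5% of all genes. As for the other lists, the Col-0 counts use libraries that chose the family and are not independent support. The 7 genes of the growing root tip, such as PLT1 and CYCB1;1, had medians of -0.12 in Col-0 with the fungus, -0.07 on LN medium in Col-0 and 0.10 on LN medium in line 308. Between line 308 and Col-0 on LN medium, 3 of 7 were called higher in line 308 and 0 lower, with a median of 0.39. The share called over all genes was 8.64% in either direction. Without Col-0 replicate 5, 6 of 7 were called higher and 1 lower, against 25.3% of all genes. The part of the root tip in the extensin levels was not tested.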

How the data were processed

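Per the study's methods, the authors aligned paired 100-base strand-specific reads of poly-A RNA with BBSplit to the Araport11, fungal and construct references together, discarding reads ambiguous between references, and counted them per transcript. Per the file headers, this used featureCounts 2.0.1 on the reverse strand, with no option to count pairs that overlap several transcripts or that are marked as multi-mapping. The submitters' processing notes also name FastQC, HISAT2 and DESeq2. The deposited values are raw counts, not normalized. How the aligner placed pairs with several equally good positions within the Arabidopsis genome is not given in the sources used here.

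Counts were summed per gene. Genes that reached 10 counts in some library were tested with edgeR 4.0.16 (quasi-likelihood, TMM, Benjamini-Hochberg over all 16540 genes, threshold 0.05), each comparison on its own groups. CPM use 1 set of TMM factors over the 30 libraries, and log2 CPM a prior count of 2. Standard errors are the log2 fold change over the root of the test statistic. The fits were tested on simulated data. Sequences and motifs come from RefSeq TAIR10.1, in which all 10 genes have the span of the deposited annotation.

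The family, the gene lists and the tests were chosen with earlier results of these data known. The text names all 10 genes and the most abundant genes of the lists of root hair genes and other extensins. For the lists of enzymes and root tip genes it gives counts or medians without values for single genes. Also named are the 5 genes of at least 50 mean counts most alike to the mean of the standardized members (6 of 10, since 4 had too few counts). Genes added to these were chosen after their values were seen. Each replicate pooled seedlings of the same plate, and whether replicates shared a plate is not given in the sources used here. The libraries of Lotus japonicus were not used here. Alternatives were DESeq2 1.42.0, a likelihood-ratio test with a common dispersion, no TMM, no filter, filterByExpr, 1 fit on all groups, counts of the first transcript, a replicate block, the form of the sample name for LN comparisons, and leaving out each library. The sample names in the file headers begin with R-, except in 308 +AMF LN replicate 3 and Col-0 +AMF LN replicates 1 and 3. All exceptions are LN libraries, and what the form stands for is not given in the sources used here.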

Additional observations from a re-analysis of the deposited data

Results flagged for a closer look

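In 1 of 30 sets of a gene and a group of 4 or 5 libraries, the lowest value lay far from the others. AT4G08410 was at 12.9 CPM in Col-0 -AMF replicate 4, against 28.1 to 29.9 CPM in the other 3 libraries. Chance gives such a gap in about 1 in 20 sets. Without that library the log2 fold change of AT4G08410 with the fungus in Col-0 was -2.65, against -2.43 with it.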

How the results depend on the processing

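In the 13 comparisons with a test, the count of called genes was equal or within 1.5 times in 193 of 220 recomputations, of which 154 had 0 calls on both sides. In Col-0 the median log2 fold change with the fungus stayed between -1.93 and -1.53. The likelihood-ratio test with a common dispersion called more genes: 5 in line 310 with AMF (0.484% of all genes), 5 in line 308 against Col-0 without AMF (9%) and 1 with it (11.5%), 4 in line 310 against Col-0 with AMF (3.31%), 6 and 2 in line 308 against line 310 without and with AMF (3.38% and 4.21%), 3 in line 308 against Col-0 on LN (15.9%), and 4 in the genotype by medium interaction (10.6%). DESeq2 called 1 in line 308 against Col-0 without AMF (5.48%) and 1 in that interaction (9.99%), where no filter also called 1 (3.26%). On LN, line 308 against Col-0 had 0 calls with the first transcript, which leaves out AT3G54590, and 0 with the form of the sample name. Leaving out 1 library gave 0 to 1 calls in line 308 against Col-0 without AMF, 0 to 2 on LN and 0 to 2 in the interaction.

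Samples of different groups shared only a replicate number (correlation of deviations -0.47 to 0.38). With the replicate block, 1 gene was called in line 308 against Col-0 without AMF (2.82% of all genes), 2 with AMF (6.32%), 2 on LN (20.1%) and 2 in the interaction (15.4%).

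Leaving out 1 library turned the sign of 3 uncalled values. AT4G08410 ranged from -0.50 to 0.16 with AMF in line 308 and from -1.88 to 0.12 in line 310, and AT3G28550 from -0.18 to 0.08 on LN in line 308. Depth limits AT3G54590 (14 to 301 counts) and the 4 genes with at most 7 counts. The cause of these changes was not tested.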
